A study of Mus musculus with 33 samples.

Results

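Frontal cortex transcriptomes of mice exposed in early life to e-cigarette aerosol with nicotine were compared with those of air exposed controls in the sequencing run whose sample titles carry an M after the animal number. The members were taken from those titles and numbered 12 of the 33 libraries in the series. The 6 air libraries were 30M, 31M, 33M, 37M, 38M and 39M, and the 6 nicotine libraries were 15M, 16M, 17M, 19M, 21M and 22M. All 12 were labelled as male C57BL/6 offspring of about 1 month of age. C57BL/6 is an inbred laboratory strain. The dams breathed filtered air or aerosol from a tobacco flavored liquid with 13 to 16 mg/mL nicotine by whole body inhalation during pregnancy, and dams and pups were exposed together during lactation. A further group of 5 libraries from the same run (2M, 3M, 4M, 5M and 7M) came from offspring exposed in the same way to aerosol of a liquid without nicotine (0 mg/mL). The aerosol with nicotine also carried the other parts of the liquid, so nicotine versus air covers the whole aerosol, and nicotine versus no nicotine asks what differed between the aerosols. In the study's methods each pup came from its own litter and each treatment had its own chamber, so chamber and treatment cannot be told apart.

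Total counts ran from 19226640 to 24600026 (median 21832511) in the air libraries and from 17845672 to 24787955 (median 19004601.5) in the nicotine libraries, a difference in means of -1979000 with an exact two-sided permutation p of 0.18 (n = 6 and 6). A total of 15293 of the 23366 genes in the table passed the filter on low counts, and levels are given as CPM, that is, counts scaled to the size of the library with TMM factors. The library labelled nicotine 21M held 4632 counts of Xist, the transcript made by the inactive X chromosome of females, which was 215 CPM against 0.04 to 0.25 CPM in the other 11 air and nicotine libraries. It also held 1 count from 4 genes of the Y chromosome (Uty, Kdm5d, Ddx3y and Eif2s3y), which summed to 110 to 131 CPM in the other 11. Each main result is therefore given with and without it. In a principal component analysis of the 17 libraries, the first component held 22.7% of the variance. It placed air from -23.9 to -11, nicotine from -8.90 to 4.84 and no nicotine from 14.0 to 31.3. Air 31M (-23.9) and air 38M (-23.3) had the lowest values, and no nicotine 3M had the highest (31.3).

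Nicotine acts on nicotinic acetylcholine receptors, ligand-gated ion channels whose natural ligand is acetylcholine. In the cortex, acetylcholine is released mainly from axons of cholinergic neurons whose cell bodies lie in the basal forebrain, below the cortex, and mRNA is found mainly in cell bodies. These neurons express the enzyme that makes acetylcholine, the transporters that load choline and acetylcholine, a receptor for neurotrophins, and a set of homeodomain transcription factors. The list of such genes is named for these neurons, and whether its reads came from them was not tested. In pieces of bulk tissue, fewer cells of a type and less RNA per cell cannot be told apart, nor can the share of a neighbouring region that a dissection included.

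Nicotine aerosol altered 58 genes when compared to air (0.379% of the genes tested) at an adjusted p below 0.05 in the quasi-likelihood test of edgeR, of which 32 were higher (0.209%) and 26 lower (0.17%). The largest increases were in Ngfr and Igsf1, and the higher genes included 7 genes from the list of basal forebrain cholinergic neurons. The lower genes changed less, with a median log2 fold change of -0.27 against 0.56 for the higher genes, and the largest decrease was 0.63 on the log2 scale for BC049635. The median absolute change was 0.43 among the 58 genes and 0.07 among all genes tested. In 49 of the 58 genes (27 higher and 22 lower) the CPM ranges of the 6 air and 6 nicotine libraries did not overlap. Of all genes, 0.804% showed this pattern upwards and 1.24% downwards (0.987% and 1.45% without nicotine 21M). The 58 genes were picked by p in these same libraries, so larger changes and less overlap largely follow from that choice.

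**Figure D1:**
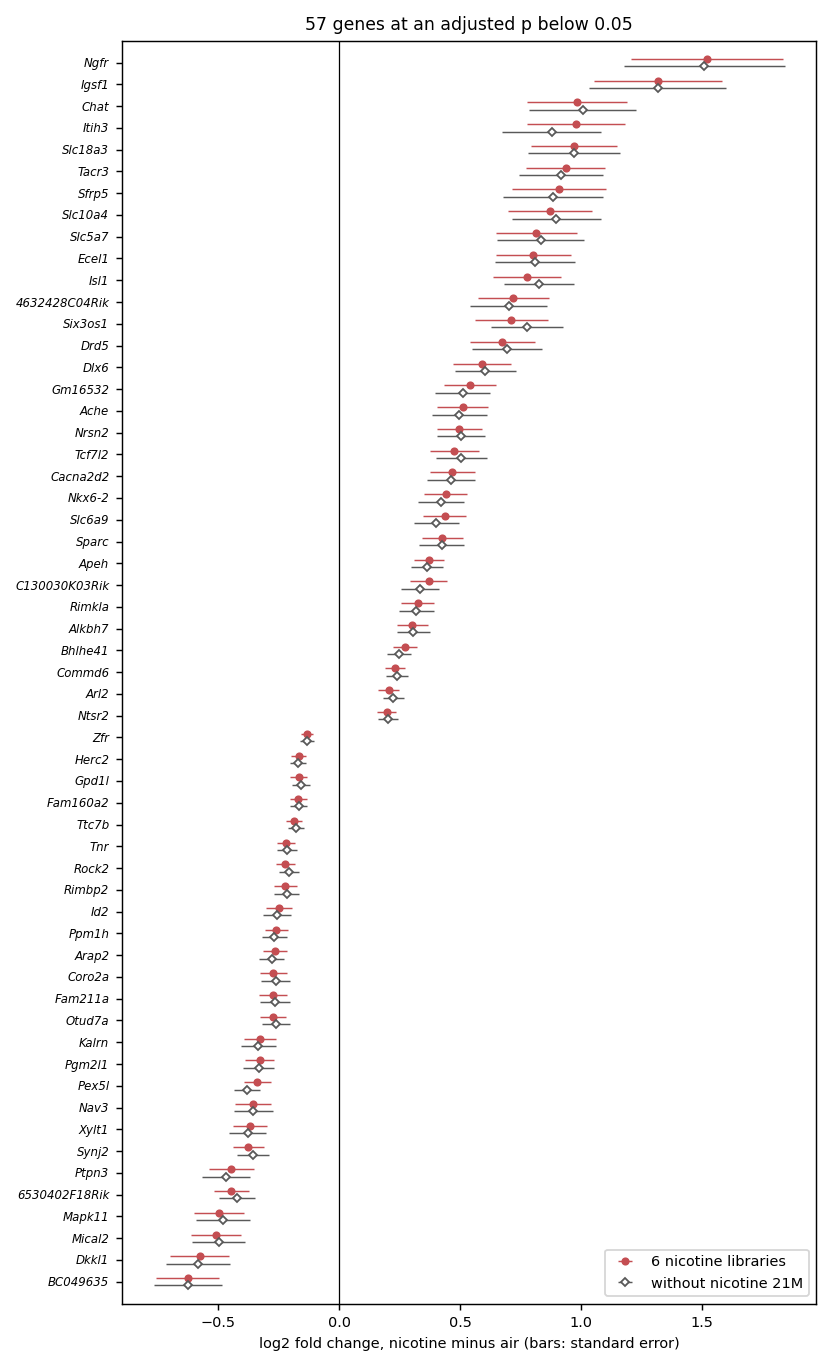
Log2 fold change of nicotine minus air for 57 of the 58 genes at an adjusted p below 0.05 (horizontal axis), with bars for the standard error, using all 6 nicotine libraries (red circles) or leaving out the library labelled nicotine 21M (open diamonds). Values run from -0.63 for BC049635 to 1.52 for Ngfr, and the 2 estimates of a gene lie within 0.10 of each other.

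The adjusted p of the 58 genes lay in a narrow range, from 0.033 to 0.048, so that their number was sensitive to small changes of the test. Unless another fit is named, edgeR means the fit of all 17 libraries. In that fit no gene passed an adjusted p below 0.01, and 2203 genes (14.4%) had an unadjusted p below 0.05 (13.1% without nicotine 21M). At an adjusted p below 0.01, edgeR on only the nicotine and air libraries gave 17 genes and DESeq2 gave 160. With edgeR, leaving out no nicotine 7M gave 2 such genes and leaving out air 30M gave 1. Without nicotine 21M, 1 gene of 15229 (0.00657%) remained at an adjusted p below 0.05 in edgeR. It was Pex5l, which was lower with an adjusted p of 0.022, and the other 57 genes had adjusted p-values of 0.073 to 0.096. The direction of the 58 genes was the same without nicotine 21M, and their log2 fold changes moved by a median of 0.01 and by at most 0.10. DESeq2 gave 440 genes (2.88%), 147 higher (0.961%) and 293 lower (1.92%), with all libraries, 57 of the 58 among them, and 303 (1.99%), 93 higher (0.611%) and 210 lower (1.38%), without nicotine 21M. A fit of only the 12 nicotine and air libraries gave 328 genes (2.2%), 133 higher (0.893%) and 195 lower (1.31%), including all 58, and a fit of 11 libraries without nicotine 21M gave 162 (1.1%), 69 higher (0.466%) and 93 lower (0.629%), including 51 of the 58. No gene passed in edgeR when air 31M, 33M or 38M or nicotine 15M, 17M or 22M was left out, with 1654 to 2148 genes at an unadjusted p below 0.05 in these fits. The count was 21, 38 and 46 without air 30M, 37M and 39M, and 71 and 18 without nicotine 16M and 19M. Leaving out 1 library without nicotine gave 19 genes for 2M, 108 for 3M, 64 for 4M, 88 for 5M and 188 for 7M. None of the 58 genes changed direction over the 29 settings run.

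**Figure D2:**
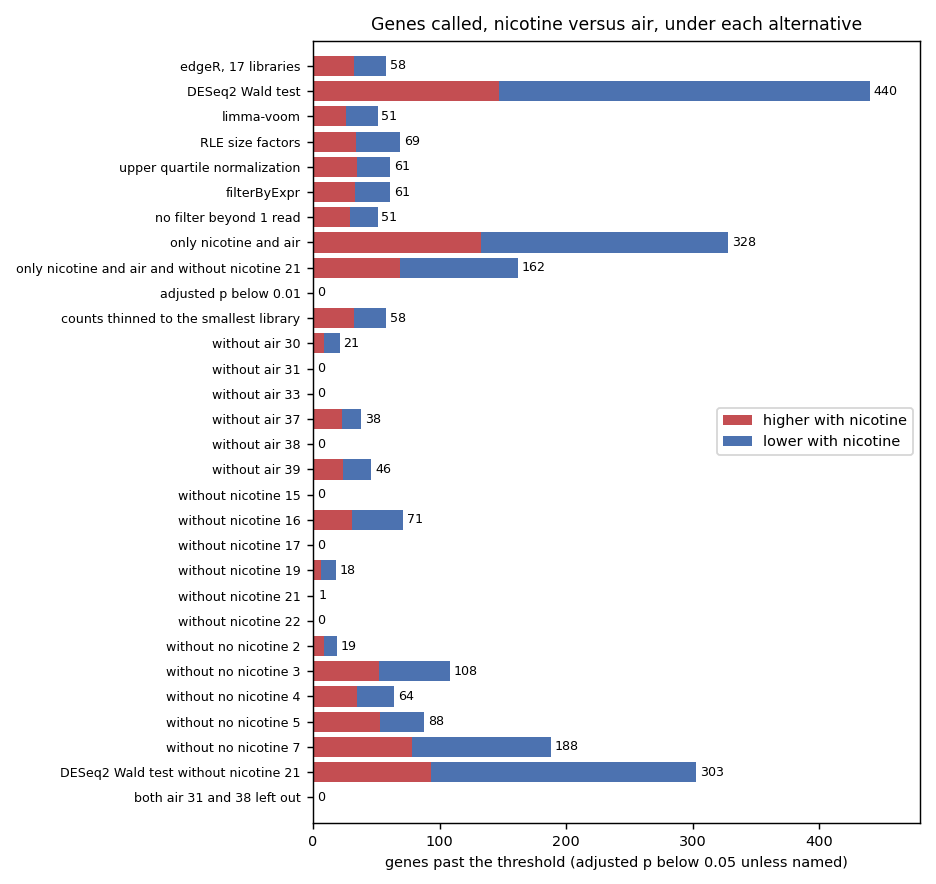
Number of genes called between nicotine and air (horizontal axis) with edgeR on 17 libraries and under each alternative (rows), split into higher (red) and lower (blue) with nicotine. Counts run from 0 to 440, with 58 in the reported fit, 1 without nicotine 21M and 303 with DESeq2 without nicotine 21M.

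The listed cholinergic neuron genes were higher with nicotine. The list was chosen with earlier results of these data known, and the study had reported higher Chat and Ngfr in these males. Its counts are therefore a description and no independent test. Of the 9 listed genes of basal forebrain cholinergic neurons, 7 rose at an adjusted p below 0.05 (0 without nicotine 21M), all 9 had an unadjusted p below 0.05 with and without nicotine 21M, and the median log2 fold change was 0.98 (1.01 without nicotine 21M) against 0.01 for all genes tested. The 250 bases before the start site are shown for 4 of the genes that rose, since these members of the list rose in the same comparison. The sequences are from RefSeq (GRCm38.p6) and are written along each gene's strand, with capitals at the letters of the motifs searched. They are those of Chat at chr14:32465910-32466159 on the minus strand, Slc5a7 at chr17:54299035-54299284 on the minus strand, Ache at chr5:137288004-137288253 on the plus strand and Ngfr at chr11:95587699-95587948 on the minus strand.
Chat: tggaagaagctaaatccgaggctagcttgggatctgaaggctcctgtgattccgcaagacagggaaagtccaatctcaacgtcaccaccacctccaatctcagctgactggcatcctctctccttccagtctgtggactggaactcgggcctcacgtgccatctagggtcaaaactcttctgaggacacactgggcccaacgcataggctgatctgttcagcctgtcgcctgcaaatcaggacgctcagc
Slc5a7: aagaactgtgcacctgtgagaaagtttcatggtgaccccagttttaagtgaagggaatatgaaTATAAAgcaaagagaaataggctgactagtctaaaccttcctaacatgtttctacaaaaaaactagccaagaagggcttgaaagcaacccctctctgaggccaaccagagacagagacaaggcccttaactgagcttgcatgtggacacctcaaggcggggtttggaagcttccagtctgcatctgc
Ache: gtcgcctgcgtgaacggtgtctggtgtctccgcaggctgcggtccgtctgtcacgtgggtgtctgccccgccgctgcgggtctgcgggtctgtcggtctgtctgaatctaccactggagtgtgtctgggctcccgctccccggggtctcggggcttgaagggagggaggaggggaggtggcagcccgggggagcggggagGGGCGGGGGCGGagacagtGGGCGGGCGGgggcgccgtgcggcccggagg
Ngfr: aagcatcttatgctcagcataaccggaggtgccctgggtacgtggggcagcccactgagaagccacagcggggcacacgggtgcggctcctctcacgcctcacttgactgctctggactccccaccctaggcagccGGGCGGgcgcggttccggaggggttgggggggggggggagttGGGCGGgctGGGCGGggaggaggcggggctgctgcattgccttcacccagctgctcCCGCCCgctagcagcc

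The motifs searched on both strands were TAATTA, the core bound by LIM homeodomain factors such as those made by Isl1 and Lhx8, GGGCGG, the GC box of many housekeeping promoters, and TATAAA, the element bound by the general factor TBP. TAATTA was in none of the 7 promoter windows of the list that were matched, and in 4.85% of the 32817 promoter windows of the genome. The GC box was in 32.7% of all windows. It was present 4 times in the window of Ache, where a pair of matches overlaps, 4 times in that of Ngfr and 2 times in that of Slc18a3, with no match for Chat, Slc5a7, Isl1 or Lhx8. TATAAA was in 12.4% of all windows and, among these genes, in that of Slc5a7 at position -187 from the start. The GC content was 54.8% for Chat, 45.6% for Slc5a7, 73.6% for Ache and 70.4% for Ngfr. A match is a description of the sequence only. Gbx1 was not matched to a promoter sequence.

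Chat (chr14:33221389-33279095, mm9) encodes choline acetyltransferase, which makes acetylcholine. It was at 3.25, 7.003 and 8.14 CPM (lowest, median and highest library) in air and at 9.70, 12.7 and 14.0 CPM with nicotine. The groups did not overlap, and Chat rose by 0.98 ± 0.21 on the log2 scale (SE; adjusted p = 0.043 with edgeR; 1.01 without nicotine 21M). Slc18a3, the vesicular acetylcholine transporter, is encoded within the Chat locus and had 5.96, 10.3 and 12.7 CPM in air and 13.5, 19.2 and 21.8 CPM with nicotine. All 6 nicotine libraries were again above all 6 air libraries, with a log2 fold change of 0.97 ± 0.18 (SE; adjusted p = 0.033; 0.97 without nicotine 21M). Slc5a7 (chr17:54412919-54438359, mm9), the transporter that takes choline back into the terminal, was at 17.03, 29.4 and 36.4 CPM in air and at 36.5, 50.04 and 55.0 CPM with nicotine. Its highest air library and lowest nicotine library lay next to each other without overlapping, and it rose by 0.81 ± 0.17 (SE; adjusted p = 0.042; 0.83 without nicotine 21M). Ache, the enzyme that breaks down acetylcholine, was at 49.7, 68.2 and 77.7 CPM in air and at 85.2, 94.2 and 97.7 CPM with nicotine. This gene is also made by neurons that do not release acetylcholine, and it had the smallest rise of the list at 0.51 ± 0.11 (SE; adjusted p = 0.042; 0.50 without nicotine 21M).

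The neurotrophin receptor of these neurons rose as well. Ngfr (chr11:95430132-95449049, mm9), the low affinity neurotrophin receptor, had 3.11, 10.46 and 14.8 CPM in air and 19.4, 27.0 and 32.3 CPM with nicotine, without overlap. Its log2 fold change of 1.52 ± 0.31 (SE; adjusted p = 0.042; 1.51 without nicotine 21M) was the highest of the called genes, and it was 1.11 ± 0.25 when air 31M and 38M were both left out.

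Among the transcription factors, Isl1 passed with edgeR on 17 libraries (not without nicotine 21M), and Lhx8 and Gbx1 did not. Isl1 and Lhx8 passed with DESeq2 with and without nicotine 21M, and DESeq2 gave Gbx1 no adjusted p. Each of them passed in the edgeR fit of 12 libraries. Isl1, a LIM homeodomain factor of cholinergic and striatal lineages, had 5.45, 6.73 and 8.41 CPM in air and 9.81, 12.1 and 13.8 CPM with nicotine, with no overlap (0.78 ± 0.14, SE; adjusted p = 0.033; 0.83 without nicotine 21M). Lhx8, which specifies forebrain cholinergic neurons, had 2.22, 5.28 and 7.196 CPM in air and 6.39, 10.7 and 12.4 CPM with nicotine. The groups overlapped through nicotine 16M, the lowest of the nicotine libraries, and the log2 fold change was 1.09 ± 0.25 (SE; adjusted p = 0.062). Gbx1, another homeobox factor of these neurons, had 0.71, 1.11 and 1.82 CPM in air and 1.68, 2.43 and 2.78 CPM with nicotine (1.06 ± 0.27, SE; adjusted p = 0.089).

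The controls were not alike for these genes. Air 31M and 38M were the 2 lowest air libraries in 8 of the 9 genes, the exception being Isl1, and the list summed to 91.0 CPM in 31M and 108 CPM in 38M against up to 168 CPM in air and 191 to 254 CPM with nicotine. Without both, the median log2 fold change of the list was 0.74, all 9 genes still had an unadjusted p below 0.05, and no gene passed the adjusted threshold. In that fit 1174 genes of 15166 had an unadjusted p below 0.05, and the lowest adjusted p was 0.28. Of the 58 genes, all kept their sign there and 52 had a smaller log2 fold change, with a median of 88.2% of the original value. In the edgeR fit of 17 libraries, 0 of the 9 genes passed when air 31M, 33M or 38M or nicotine 15M, 17M, 21M or 22M was left out, 1 passed without air 30M or nicotine 19M, and 3 to 9 passed in the other fits that left out 1 library. All 9 had an unadjusted p below 0.05 in each of these fits, with a list median of 0.86 to 1.07. With DESeq2, 8 of the 9 genes passed with and without nicotine 21M. In the fit of 12 libraries all 9 passed, with adjusted p-values of 0.0070 to 0.023, and in the fit of 11 libraries they were 0.017 to 0.048.

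**Figure D3:**
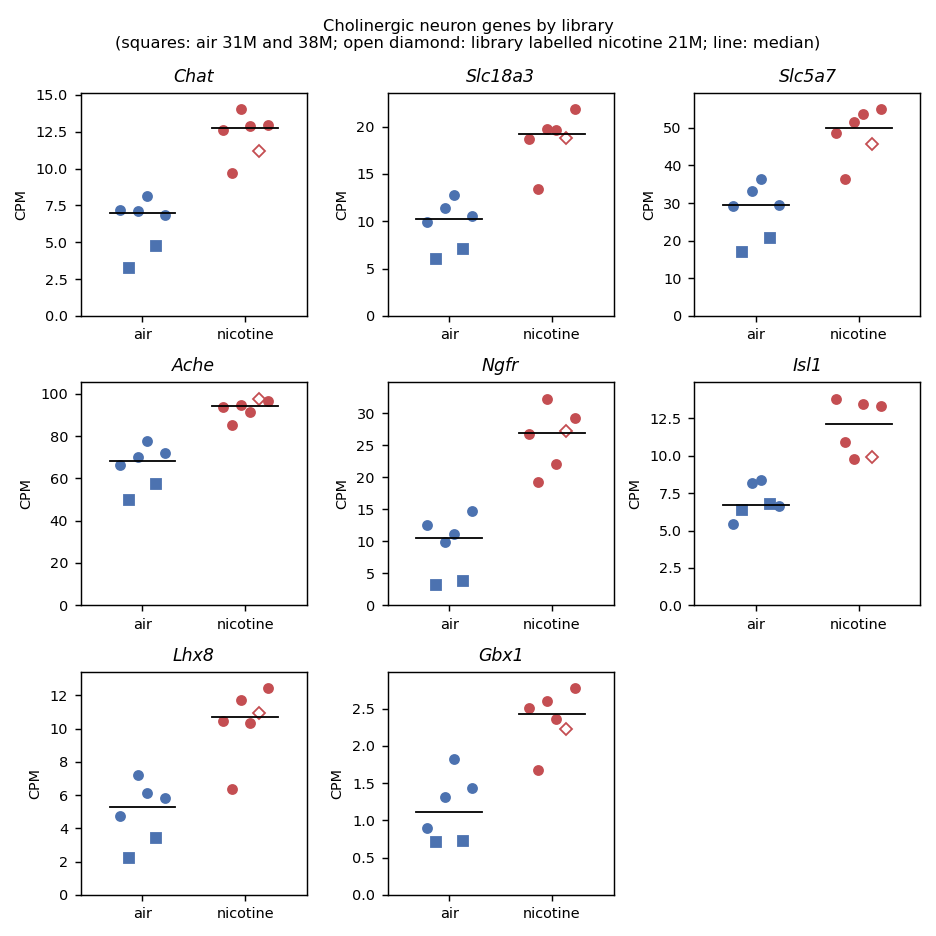
CPM (vertical axis, from 0) of 8 cholinergic neuron genes in each air (blue) and nicotine (red) library, with squares for air 31M and 38M, an open diamond for the library labelled nicotine 21M, and a line at the group median. In 6 of the 8 genes the nicotine libraries lie above the air libraries, and in Lhx8 and Gbx1 the ranges overlap.

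No receptor gene for acetylcholine passed with edgeR, and the muscarinic receptor Chrm3 passed with DESeq2, with and without nicotine 21M. Of 16 nicotinic receptor genes and partners tested, none passed the threshold with edgeR or DESeq2, 1 had an unadjusted p below 0.05 upwards and 3 downwards, and the median log2 fold change was -0.10 (-0.11 without nicotine 21M). Chrna2, a subunit found in a class of deep layer interneurons, had 1.06, 1.58 and 2.40 CPM in air and 1.85, 2.53 and 3.62 CPM with nicotine (log2 fold change 0.69, adjusted p = 0.13 with edgeR). Chrna4, a subunit of the high affinity receptor of the brain, had 42.6, 50.7 and 54.4 CPM in air and 34.2, 38.3 and 56.6 CPM with nicotine (-0.26, adjusted p = 0.25). Chrna5, an accessory subunit of deep cortical layers, had 1.67, 2 and 2.93 CPM in air and 1.29, 1.59 and 2.004 CPM with nicotine (-0.40, adjusted p = 0.20). In all 3 genes the groups overlapped. Of the 5 muscarinic receptors, the G protein-coupled receptors for acetylcholine, none passed with edgeR, 1 had an unadjusted p below 0.05, and DESeq2 called 1. This was Chrm3, with 37.9, 42.7 and 47.9 CPM in air and 28.7, 34.7 and 40.4 CPM with nicotine (-0.29, adjusted p = 0.089 with edgeR).

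Several other receptors and transporters were higher with nicotine. Tacr3 (chr3:134491971-134597545, mm9), the receptor for neurokinin B, had 4.36, 7.44 and 9.36 CPM in air and 11.3, 14.2 and 15.1 CPM with nicotine, without overlap, and rose by 0.94 ± 0.16 on the log2 scale (SE; adjusted p = 0.033 with edgeR). Drd5, the dopamine D5 receptor, had 2.45, 3.24 and 4.61 CPM in air and 4.65, 4.99 and 6.26 CPM with nicotine (0.67, adjusted p = 0.042). With edgeR on 17 libraries it was the member called among 11 tested genes of dopamine synthesis, transport and reception. In that fit 4 had an unadjusted p below 0.05, all higher, with a median log2 fold change of 0.36 (0.17 without nicotine 21M). DESeq2 called 2, Drd5 and Ddc, both higher. It called 0 without nicotine 21M, where it gave Drd5 no adjusted p. The edgeR fit of 12 libraries called 3, all higher. Ntsr2, a neurotensin receptor found mainly on astrocytes, changed little but without overlap, from 190 to 211 CPM in air and from 220 to 240 CPM with nicotine (0.20, adjusted p = 0.042). Slc6a9, the glycine transporter GlyT1, had 73.7, 79.3 and 91.5 CPM in air and 93.9, 112 and 121 CPM with nicotine (0.44, adjusted p = 0.042). Its count is uncertain, since 38.9% of its 50-base windows occur in transcripts of another gene and its exons overlap a gene on the opposite strand. Slc10a4, a transporter-like protein of cholinergic and monoaminergic synaptic vesicles, had 3.51, 5.88 and 7.44 CPM in air and 6.51, 10.6 and 12.3 CPM with nicotine (0.87, adjusted p = 0.042). The groups overlapped through nicotine 16M, and 20.03% of its windows are shared in the same way. Cacna2d2, an auxiliary subunit of voltage-gated calcium channels, had 43.7, 57.0 and 67.5 CPM in air and 70.3, 78.8 and 79.7 CPM with nicotine (0.47, adjusted p = 0.042).

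Igsf1, a membrane protein of the immunoglobulin superfamily, had 8.31, 16.8 and 29.7 CPM in air and 41.1, 44.3 and 51.8 CPM with nicotine. All nicotine libraries were above the highest air library, and Igsf1 rose by 1.32 ± 0.27 (SE; adjusted p = 0.042; 1.32 without nicotine 21M). Itih3, a hyaluronan-binding protein of the inter-alpha-trypsin inhibitor family, had 17.99, 21.9 and 28.4 CPM in air and 34.5, 43.8 and 59.5 CPM with nicotine (0.98 ± 0.20, SE; adjusted p = 0.042; 0.88 without nicotine 21M, which was its highest library). Ecel1, a membrane metalloprotease of neurons, had 15.5, 26.5 and 28.9 CPM in air and 38.1, 42.3 and 45.4 CPM with nicotine (0.80, adjusted p = 0.042). Sfrp5, a secreted inhibitor of Wnt signalling, overlapped between groups through nicotine 19M at 3.59 CPM, with 2.71, 3.47 and 4.97 CPM in air and a nicotine median of 7.40 CPM (0.91, adjusted p = 0.043). Sparc, a secreted protein of the extracellular matrix, lay from 481 to 678 CPM in air and from 707 to 854 CPM with nicotine (0.43, adjusted p = 0.042).

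Among the regulators of transcription, Tcf7l2, an effector of Wnt signalling and a marker of thalamic neurons, had 11.4, 15.8 and 16.9 CPM in air and 17.9, 20.7 and 23.8 CPM with nicotine (0.48, adjusted p = 0.042). It was the member called among 10 genes of the thalamus list. Dlx6, a homeobox factor of GABAergic neurons, had 5.04, 5.74 and 7.28 CPM in air and 7.23, 8.65 and 11.2 CPM with nicotine (0.59, adjusted p = 0.042), with a slight overlap. Nkx6-2, a homeobox factor of oligodendrocytes, had 11.2, 12.1 and 13.5 CPM in air and 15.03, 16.9 and 17.6 CPM with nicotine (0.44, adjusted p = 0.042). Its exons overlap those of Inpp5a on the other strand, and 10.7% of its windows are shared. Six3os1, a noncoding transcript on the strand opposite Six3, rose by 0.71 (adjusted p = 0.042), and Six3 itself had a log2 fold change of 0.66 (adjusted p = 0.080). The strand used in counting is not given in the sources used here, so reads of the pair cannot be told apart. Bhlhe41, a repressor within the circadian clock, had 30.1, 34.8 and 35.7 CPM in air and 37.1, 40.8 and 43.8 CPM with nicotine (0.27, adjusted p = 0.033). Smaller increases without overlap were found for Apeh, a peptidase that removes acetylated amino acids (0.37), Rimkla, which makes the neuropeptide N-acetylaspartylglutamate (0.32, with exons overlapping Zmynd12), and Commd6 (0.23). Arl2, a GTPase of tubulin folding, rose by 0.20, and its exons overlap those of Batf2.

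The genes that fell with nicotine changed by less than those that rose. Pex5l (chr3:32848553-33042169, mm9), a subunit that controls the trafficking of HCN pacemaker channels, had 114, 126 and 138 CPM in air and 90.4, 97.2 and 114 CPM with nicotine. The ranges overlapped through nicotine 21M, the highest nicotine library, and Pex5l fell by 0.34 on the log2 scale with it (adjusted p = 0.033 with edgeR) and by 0.38 without it (adjusted p = 0.022). Its exons overlap a gene on the opposite strand. Synj2, a phosphoinositide phosphatase of membrane trafficking, had 69.1, 77.6 and 81.1 CPM in air and 52.0, 57.8 and 66.8 CPM with nicotine (-0.38, adjusted p = 0.033), with exons overlapping Serac1. Rimbp2, which links calcium channels to the release site, had 56.9, 61.2 and 66.7 CPM in air and 49.7, 53.1 and 55.2 CPM with nicotine (-0.22, adjusted p = 0.042). Tnr (chr1:161667641-161855053, mm9), tenascin-R of the perineuronal net, had 90.5, 96.5 and 101 CPM in air and 79.5, 82.4 and 87.9 CPM with nicotine (-0.22, adjusted p = 0.033). It was the member called among the 12 genes of perineuronal nets and matrix, whose median log2 fold change was 0.01. Xylt1, which starts the sugar chains of proteoglycans, had 29.7, 32.6 and 35.0 CPM in air and 21.2, 26.2 and 28.4 CPM with nicotine (-0.37, adjusted p = 0.039).

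Mical2, an enzyme that oxidises actin, had 156, 188 and 224 CPM in air and 123, 136 and 141 CPM with nicotine (-0.51, adjusted p = 0.042). Kalrn, a guanine nucleotide exchange factor of dendritic spines, had 371, 407 and 440 CPM in air and 308, 327 and 333 CPM with nicotine (-0.33, adjusted p = 0.042). Rock2, a kinase that regulates the actin cytoskeleton, lay from 205 to 213 CPM in air and from 170 to 187 CPM with nicotine (-0.22, adjusted p = 0.033). In these 3 genes the groups did not overlap. Mapk11, the beta form of p38 kinase, had 19.9, 22.7 and 26.8 CPM in air and 14.4, 15.5 and 18.5 CPM with nicotine (-0.50, adjusted p = 0.042). Ptpn3, a tyrosine phosphatase, had 50.01, 53.9 and 63.8 CPM in air and 35.9, 40.5 and 45.3 CPM with nicotine (-0.45, adjusted p = 0.042), and its exons overlap a gene on the opposite strand. Pgm2l1, which makes glucose 1,6-bisphosphate in brain, lay from 539 to 572 CPM in air and from 384 to 487 CPM with nicotine (-0.33, adjusted p = 0.033). Id2, an inhibitor of helix-loop-helix transcription factors, fell by 0.25 (adjusted p = 0.048), and its groups overlapped through air 30M. The remaining genes that fell had log2 fold changes between -0.63 and -0.13. BC049635 and Dkkl1 were the largest of these at -0.63 and -0.58, and Zfr, an RNA-binding zinc finger protein, was the smallest, from 458 to 476 CPM in air and from 416 to 437 CPM with nicotine.

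Lists of cell type and region markers had medians on both sides of 0. The tissue carried its defining markers: the 24 cortical glutamatergic genes summed to 4192 to 4850 CPM in air and 3176 to 4088 CPM with nicotine, without overlap. None of the 24 passed with edgeR on 17 libraries. In that fit 11 had an unadjusted p below 0.05 downwards (9 without nicotine 21M) and 2 upwards. The median log2 fold change was -0.23 (-0.25 without nicotine 21M). The edgeR fit of 12 libraries called 5, all lower, and that of 11 libraries without nicotine 21M called 2, both lower. DESeq2 called 3 lower with all libraries, and 3 lower and 1 higher without nicotine 21M. The background of all genes at that unadjusted p was 7.38% downwards and 7.02% upwards (6.68% and 6.42% without nicotine 21M). Nr4a2, a nuclear receptor of deep layer and subplate neurons, had 54.2, 63.7 and 73.9 CPM in air and 27.7, 32.4 and 43.0 CPM with nicotine, and its log2 fold change was -0.89 (adjusted p = 0.070 with edgeR) with no overlap. Slc17a7, the vesicular glutamate transporter of cortical neurons, had 2037, 2208 and 2496 CPM in air and 1469, 1632 and 2108 CPM with nicotine (-0.42, adjusted p = 0.15). Neurod6, a factor of cortical projection neurons, had 31.6, 37.2 and 43.0 CPM in air and 10.4, 23.6 and 31.4 CPM with nicotine, which did not overlap (-0.78, adjusted p = 0.22).

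Markers of regions below the cortex had positive medians, which differed in size. For 8 septum and Zic genes the median was 0.14 (0.06 without nicotine 21M), with 5 higher and 3 lower. With edgeR on 17 libraries 0 of these passed and 0 had an unadjusted p below 0.05. The 10 thalamus genes had a median of 0.17 (0.18 without nicotine 21M). Of 9 tested hypothalamus genes none passed with edgeR on 17 libraries, and 6 had an unadjusted p below 0.05, all higher (5 without nicotine 21M). In the edgeR fits of 12 libraries and of 11 without nicotine 21M, 1 passed, higher. The median log2 fold change was 1.07 (0.86 without nicotine 21M and 0.58 without air 31M and 38M). Nkx2-1, a homeobox factor of the ventral forebrain and hypothalamus, had 1.16, 1.96 and 2.52 CPM in air and 2.90, 3.96 and 5.33 CPM with nicotine (1.11, adjusted p = 0.054 with edgeR), without overlap. It was the 1 gene of the list that DESeq2 called, and that tool gave it no adjusted p without nicotine 21M. Oxt, which encodes oxytocin, was at 0 CPM in the lowest air library, with a median of 0.26 CPM in air and 1.55 CPM with nicotine (adjusted p = 0.089). Baiap3 overlapped widely, with 16.0, 26.8 and 44.2 CPM in air and 30.3, 55.3 and 63.0 CPM with nicotine (0.85, adjusted p = 0.12). Of 17 striatal projection neuron genes, 16 had a positive log2 fold change, as 52.8% of all genes did. Their median was 0.33 (0.42 without nicotine 21M). None passed with edgeR on 17 libraries, 1 had an unadjusted p below 0.05 (6 without nicotine 21M), and DESeq2 called 1. In the edgeR fit of 12 libraries 1 passed and 8 had an unadjusted p below 0.05. In that of 11 libraries without nicotine 21M the numbers were 1 and 15. The summed level of the striatal genes overlapped, at 2172 to 3608 CPM in air and 2348 to 4594 CPM with nicotine, where nicotine 21M was the lowest. The medians of these regional markers had the same sign as the cholinergic genes, and their part in the cholinergic result was not tested.

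**Figure D4:**
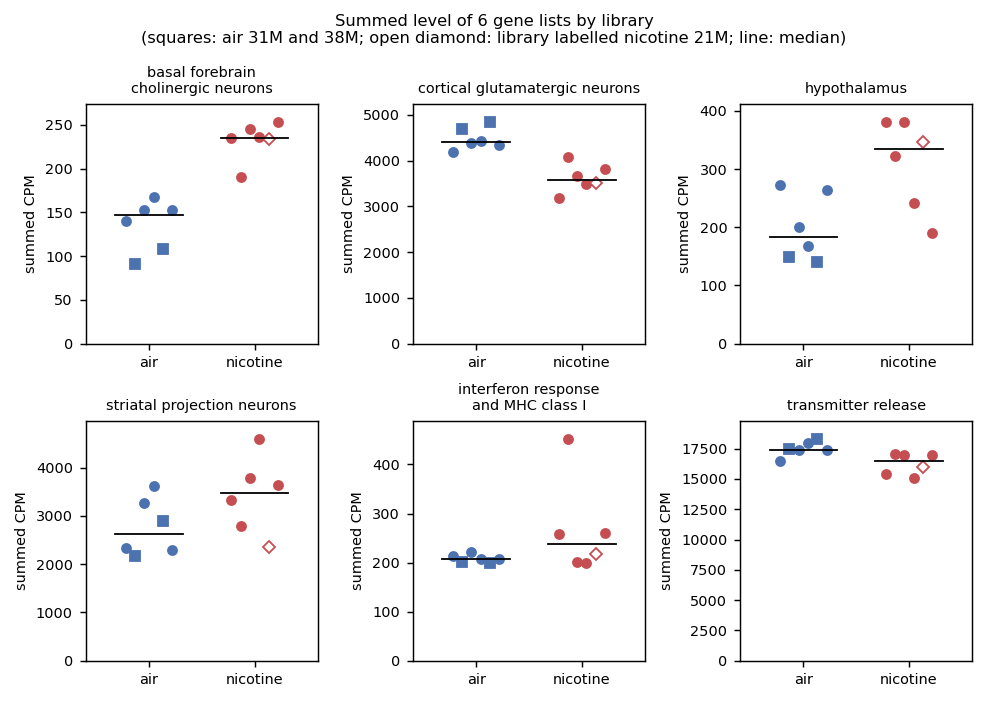
Summed CPM (vertical axis, from 0) of 6 gene lists in each air (blue) and nicotine (red) library, with squares for air 31M and 38M, an open diamond for the library labelled nicotine 21M, and a line at the group median. The cholinergic sums (91.0 to 168 CPM in air, 191 to 254 CPM with nicotine) and the cortical sums (4192 to 4850 and 3176 to 4088 CPM) do not overlap, while the hypothalamus, striatal and interferon sums do.

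The medians of the other cell types ran from -0.05 to 0.40. Among 19 genes of GABAergic interneurons none passed with edgeR on 17 libraries, and 3 higher and 1 lower passed in the fit of 12 libraries. In the former fit 6 had an unadjusted p below 0.05 upwards and 2 downwards (4 and 3 without nicotine 21M). The median was 0.05 (0.08 without nicotine 21M). DESeq2 called 4, all higher, and 2 of them, Slc32a1 and Lhx6, without nicotine 21M. Slc32a1, the vesicular GABA transporter, had 168, 203 and 251 CPM in air and 240, 271 and 297 CPM with nicotine (0.40, adjusted p = 0.078 with edgeR). Lhx6, a factor of interneurons born in the ventral forebrain, had 22.2, 29.4 and 31.4 CPM in air and 30.8, 39.3 and 41.4 CPM with nicotine (0.45, adjusted p = 0.089). All 19 myelin genes had a positive log2 fold change with a median of 0.17, and Nkx6-2 was the 1 called and the 1 with an unadjusted p below 0.05. In the lists of 14 astrocyte, 14 microglia and 14 endothelial genes no gene passed with edgeR, and 3, 0 and 1 had an unadjusted p below 0.05 (3, 0 and 0 without nicotine 21M). DESeq2 called 1 astrocyte gene and none in the other lists, and the medians were 0.02, -0.05 and 0.01. Clic6, an intracellular chloride channel protein abundant in choroid plexus, had 5.56, 10 and 12.2 CPM in air and 14.7, 15.4 and 19.4 CPM with nicotine, without overlap (0.82, adjusted p = 0.067). The median of its list of 12 genes was 0.31, with 2 genes at an unadjusted p below 0.05 (1 without nicotine 21M) and Clic6 called by DESeq2. In the edgeR fit of 12 libraries, 1 of the 9 choroid plexus genes tested there passed, higher. All 12 genes of the meninges had a positive log2 fold change, with a median of 0.40 (0.43 without nicotine 21M). None passed with edgeR or DESeq2, 1 had an unadjusted p below 0.05, and their summed level was 354 to 577 CPM in air and 324 to 1139 CPM with nicotine, highest in nicotine 22M. The 9 genes of the olfactory bulb had a median of -0.04, which was -0.67 without nicotine 21M, their highest library at a sum of 416 CPM. None of them passed with either tool, and 0 had an unadjusted p below 0.05 with nicotine 21M and 2, both lower, without it.

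**Figure D5:**
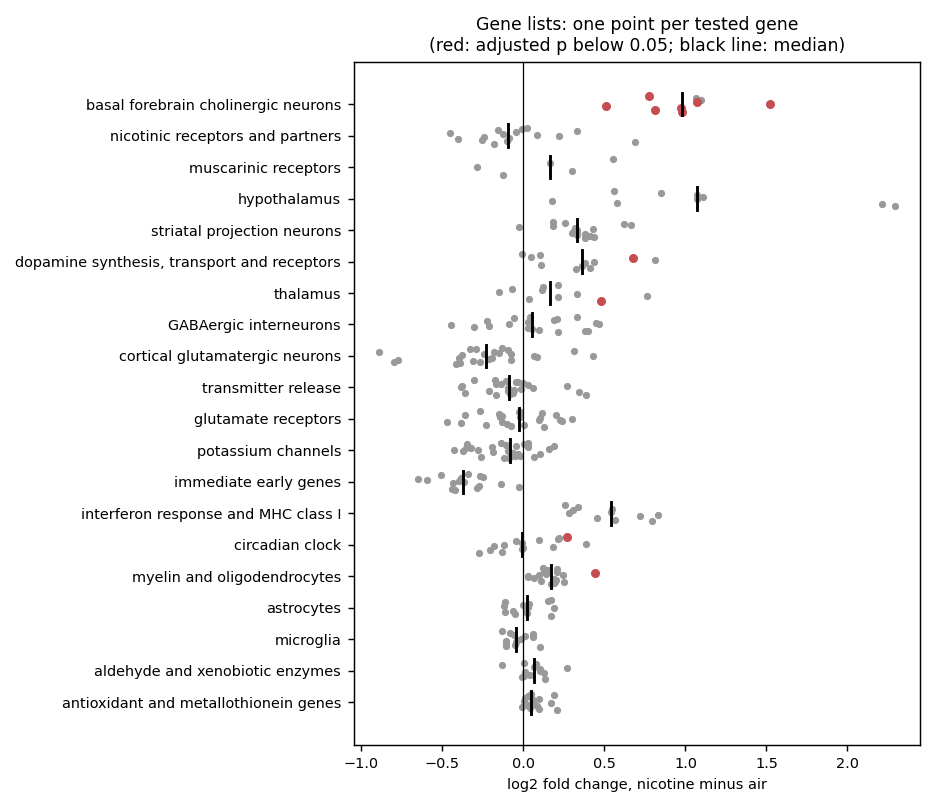
Log2 fold change of nicotine minus air (horizontal axis) for each tested gene of 20 lists (rows), with genes at an adjusted p below 0.05 in red and a black line at the list's median. The cholinergic list has 7 red points and a median of 0.98, and the lists of cortical glutamatergic neurons (-0.23) and immediate early genes (-0.38) have the lowest medians.

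The lists of transmitter release, glutamate receptors and potassium channels had medians of -0.09, -0.03 and -0.08. Of 24 genes of transmitter release none passed with edgeR on 17 libraries, and DESeq2 called 5 lower (4 without nicotine 21M). In that edgeR fit 10 had an unadjusted p below 0.05 downwards and 2 upwards, both with and without nicotine 21M. Under another scaling of the libraries (RLE) edgeR called 1 lower. The edgeR fit of 12 libraries called 4 lower, and that of 11 libraries without nicotine 21M called 3 lower. Syn1, a protein that tethers synaptic vesicles, had 760, 796 and 841 CPM in air and 644, 692 and 745 CPM with nicotine (-0.22, adjusted p = 0.054 with edgeR). The groups did not overlap, and the exons of Syn1 overlap those of Araf on the other strand. Of 23 glutamate receptor genes none passed with edgeR on 17 libraries, and 1, lower, passed in the fit of 12 libraries. In the former fit 5 had an unadjusted p below 0.05 downwards and 3 upwards (5 and 1 without nicotine 21M). DESeq2 called Grin2b and Gria3, both lower (Grin2b without nicotine 21M). Grin2b, an NMDA receptor subunit, had 50.8, 56.4 and 61.6 CPM in air and 27.6, 39.8 and 49.5 CPM with nicotine (-0.47, adjusted p = 0.065; -0.54 and 0.075 without nicotine 21M), and its exons also overlap another gene. Of 30 potassium channel genes none passed with edgeR on 17 libraries, and 2, both lower, passed in the fit of 12 libraries. In the former fit 7 had an unadjusted p below 0.05 downwards and 1 upwards (8 and 0 without nicotine 21M). DESeq2 called 6, all lower (3 without nicotine 21M). Kcnj6, the channel GIRK2, had 21.4, 24.5 and 27.4 CPM in air and 14.5, 17.99 and 21.4 CPM with nicotine (-0.43, adjusted p = 0.074). Of 16 GABA receptor genes none passed with edgeR, 2 had an unadjusted p below 0.05 in each direction (1 upwards and 3 downwards without nicotine 21M), and 8 had a positive and 8 a negative log2 fold change. DESeq2 called Gabbr2, a subunit of the GABA-B receptor, which was lower, and called none of them without nicotine 21M. In the edgeR fit of 12 libraries 1 of the GABA receptor genes passed, also lower. The release list summed to 16510 to 18300 CPM in air and 15100 to 17040 CPM with nicotine. The cortical glutamatergic markers were lower in the same libraries, and their part in these values was not tested.

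All 16 immediate early genes, which neurons switch on with activity, had a negative log2 fold change with a median of -0.38 (-0.26 without nicotine 21M). None passed with edgeR or DESeq2, and 1, Egr3, had an unadjusted p below 0.05, with 55.0, 70.2 and 80.2 CPM in air and 37.1, 54.6 and 66.9 CPM with nicotine (-0.37, adjusted p = 0.14 with edgeR). Npas4 varied widely, with 19.1, 29.0 and 49.7 CPM in air and 7, 18.2 and 34.4 CPM with nicotine (-0.65, adjusted p = 0.35). Of 15 circadian clock genes, Bhlhe41 was called (no gene without nicotine 21M), 5 had an unadjusted p below 0.05 in each direction (5 upwards and 4 downwards without nicotine 21M), and the median was -0.01 (0.05 without nicotine 21M). DESeq2 called 2 higher and 3 lower (2 and 2 without nicotine 21M). Dbp, an output gene of the clock, had 39.1, 50.5 and 60.0 CPM in air and 60.5, 62.7 and 74.5 CPM with nicotine (0.39, adjusted p = 0.089). Its count is uncertain, since 25.5% of its 50-base windows occur in transcripts of another gene. Arntl, which encodes the activator BMAL1, had 26.3, 32.7 and 37.1 CPM in air and 23.6, 27.2 and 28.7 CPM with nicotine (-0.28, adjusted p = 0.11), and Clock, its partner, had a log2 fold change of -0.13 (adjusted p = 0.080). The hour of collection is not given in the sources used here.

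Of the 7 genes that the study followed by qPCR, Ngfr and Chat were called with edgeR on 17 libraries, and neither without nicotine 21M. DESeq2 called the same genes with and without nicotine 21M. The edgeR fit of 12 libraries called 3 higher and 1 lower. Bdnf, a neurotrophin, had 26.9, 33.7 and 37.7 CPM in air and 17.02, 27.9 and 32.9 CPM with nicotine (-0.29, adjusted p = 0.37 with edgeR). Gdnf, a growth factor for dopamine neurons, had 0.89, 1.58 and 2.14 CPM in air and 1.40, 2.04 and 2.56 CPM with nicotine (0.34, adjusted p = 0.48). Gal, the neuropeptide galanin, had 0.09, 0.25 and 0.58 CPM in air and 0.56, 0.76 and 1.81 CPM with nicotine. Its highest value was in nicotine 21M, and its log2 fold change was 1.63 with that library and 1.29 without it (adjusted p = 0.14 and 0.28). Tbr1, a factor of deep layer cortical neurons, had 138, 161 and 189 CPM in air and 96.2, 127 and 144 CPM with nicotine (-0.39, adjusted p = 0.17). Adra1d, an alpha-1 adrenergic receptor, had 11.2, 18.5 and 22.3 CPM in air and 5.74, 12.7 and 16.0 CPM with nicotine (-0.62, adjusted p = 0.25). In these last 5 genes the groups overlapped.

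When compared directly with the aerosol without nicotine, nicotine aerosol altered 544 genes (3.56%) with edgeR, 332 higher (2.17%) and 212 lower (1.39%). The count was 262 without nicotine 21M, 1019 with DESeq2, and 0 in a fit of only the 11 libraries of these groups, where 2649 genes had an unadjusted p below 0.05. Leaving out 1 library gave 135 to 957 genes, the fewest without nicotine 16M and the most without nicotine 19M. Tshz3, a zinc finger transcription factor, had 23.5, 25.7 and 31.7 CPM with nicotine and 15.04, 16.6 and 20.5 CPM without it, and Bmp3, a growth factor of the BMP family, had 8.54, 11.8 and 13.9 CPM with nicotine and 2.61, 4.65 and 5.88 CPM without it. Both were higher with nicotine and did not overlap. Bcas1, a gene of newly formed oligodendrocytes, was lower with nicotine, at 149, 158 and 176 CPM against 196, 208 and 241 CPM. In air these genes lay at 28.1 to 32.9, 10.3 to 16.6 and 144 to 165 CPM.

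Of the 58 genes called between nicotine and air, 16 also differed between nicotine and no nicotine, and 30 of the 32 that were higher than air were lower with nicotine than without it. All 9 cholinergic genes lay lower with nicotine than without, by -0.59 to -0.36 on the log2 scale, with adjusted p-values of 0.048 to 0.32. Ache was the 1 that passed, at 85.2, 94.2 and 97.7 CPM with nicotine and 92.4, 131 and 149 CPM without it. Nicotine versus air and no nicotine versus air share the 6 air libraries, so their values are only given side by side. Chat was 0.98 and Ngfr was 1.52 above air with nicotine, and the medians without nicotine were 18.9 CPM for Chat and 44.8 CPM for Ngfr against 7.003 and 10.46 CPM in air. Pex5l had a median of 126 CPM in air, 97.2 CPM with nicotine and 86.9 CPM without nicotine. All 58 genes had the same sign in both comparisons with air, and 54 had the larger change without nicotine. These genes were chosen by nicotine versus air, so the shared air libraries favour the same sign. The share of all genes with the same sign was not computed.

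The same comparison was made in the other run of the series, with 6 air and 5 nicotine libraries labelled female. Run and labelled sex cannot be told apart. All 58 genes had the same sign there, and 49 had an adjusted p below 0.05. The shares of all genes that kept their sign or passed in that run were not computed. These counts therefore have no background to be set against. The 9 cholinergic genes had log2 fold changes of 0.80 to 2.18 in that run with adjusted p-values of 0.0016 to 0.0099. The difference of the changes between the runs was tested on 15105 genes. None passed with edgeR (0%), 978 (6.47%) had an unadjusted p below 0.05, and DESeq2 gave 19, 6 higher and 13 lower. For the cholinergic genes the unadjusted p of the difference was 0.048 to 0.32 and the adjusted p was 0.76 to 0.91. Among the 58 genes the lowest adjusted p of the difference was 0.60. A p that misses the threshold does not show that the runs responded alike.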

How the data were processed

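RNA-Seq read counts per gene were used as the authors deposited them, as raw counts without normalization, in 1 table for each run. According to the study's methods, Bowtie aligned the single-end reads to mouse transcripts (mm9), SAMtools discarded PCR duplicates and HTSeq counted the rest. The strand setting is not given in the sources used here, and 15 of the 55 called genes with a position have exons that overlap another gene. Samples were grouped by their titles, and 1 column that matched no sample was not used. The deposited tables of normalized values were not used.

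A gene entered the tests if its summed CPM across the 17 libraries of the run was at least 5. After TMM scaling, edgeR 4.0.16 in R 4.3.3 gave quasi-likelihood tests, with the air, nicotine and no nicotine groups in 1 fit, 2-sided, and p adjusted by Benjamini-Hochberg over all genes tested at a threshold of 0.05. A threshold of 0.01, the study's, stands beside it. The alternatives were DESeq2 1.42.0, limma-voom (limma 3.58.1), other scalings and filters, a fit of 2 groups, thinned counts and leaving out each library. DESeq2 without nicotine 21M and the fit without air 31M and 38M were added after seeing the data. The scripts were tested on simulated counts. Pairs of replicates of a group differed by more than sampling noise in all 30 pairs (chi-square per degree of freedom 4.56 to 13.4). Sequences were those of RefSeq (GRCm38.p6), and 7 of the 9 cholinergic genes were matched.

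Members and lists were chosen with earlier results of these data known. The rule named the genes with the smallest p in the comparison with air with and without nicotine 21M, the 5 with the largest change in each direction, the first 4 of each list by p, sex-linked genes, the qPCR genes, and the first 5 in each direction of the other comparisons. Other genes named were chosen after their values were seen. 1 gene of the cholinergic list is counted in the totals but not reported here.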

Additional observations from a re-analysis of the deposited data

Results flagged for a closer look

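Among 242 groups of 6 libraries (a gene or list sum in air or nicotine), 18 held a library at the edge whose gap to the next was more than 0.625 of the range, Dixon's critical value for 6. Chance flags about 1 in 20 groups. Nicotine 16M was highest for the interferon-induced genes Oasl2 (17.6 CPM, next 9.09), Ifit1 (10.99 CPM, next 6.60) and Irf7 (17.2 CPM, next 5.76) and for the summed list of interferon response and MHC class I (452 CPM, next 261). The same library was lowest for Lhx8 (6.39 CPM), Cacna2d2 (70.3 CPM) and the summed cholinergic list (191 CPM, next 234). The library labelled nicotine 21M was highest for Xist (215 CPM) and Gal (1.81 CPM), and Xist in air 33M was 0.25 CPM against 0.11 CPM in the next. Otud7a was highest in nicotine 17M at 45.2 CPM, Sfrp5 lowest in nicotine 19M at 3.59 CPM, Baiap3 lowest in nicotine 22M at 30.3 CPM and Dbp highest in nicotine 22M at 74.5 CPM. In air, Id2 was lowest in 30M at 117 CPM, Mag highest in 37M at 395 CPM, and Gsr and Hmox1 highest in 39M at 31.1 and 6.81 CPM. No cause was tested for any of these values.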

How the results depend on the processing

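For nicotine versus air, the count of 58 genes was 440 with DESeq2, 303 with DESeq2 without nicotine 21M, 328 with only the 2 groups compared, 162 with these groups and without nicotine 21M, 0 at an adjusted p below 0.01 and 0 without both air 31M and 38M. It was 0 to 188 over 17 fits that left out 1 library and 51 to 69 under limma-voom and the other scalings, filters and thinning. For nicotine versus no nicotine, 544 genes became 1019 with DESeq2, 38 at an adjusted p below 0.01, 0 with only the 2 groups compared and 0 with these groups without nicotine 21M, and 135 to 957 when 1 library was left out. For the difference between the runs, 0 genes became 19 with DESeq2. A replicate block in the other run gave 1 gene, lower, but libraries with the same number did not deviate together there (correlations of -0.25 to 0.24 over 5 numbers), and nicotine and air of the M-titled run share no replicate number. The causes were not tested. Over 4417 values of named genes and list medians under the alternatives, 3554 kept their direction and side of the threshold, 741 lost and 117 gained the call, 4 had no adjusted p, and the median of the hypothalamus list moved from 1.07 to 0.58 without air 31M and 38M. No named gene changed sign, but 52 of 1036 list medians did, in 9 of 37 lists. In 8 of these lists the reported median was within 0.03 of 0, and that of the olfactory bulb list, -0.04, ran from -0.67 to 0.23. The alternatives DESeq2 without nicotine 21M and leaving out air 31M and 38M were chosen after seeing the data. The difference in total counts between nicotine and air was -2929000 to -1463000 when 1 library was left out, and thinning all libraries to the smallest gave 58 genes.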

Other observations

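Interferon-induced genes and MHC class I genes lay higher in part of the nicotine libraries. Of 11 tested genes none passed with edgeR, 7 had an unadjusted p below 0.05 upwards (8 without nicotine 21M), and the median log2 fold change was 0.54 against 0.01 for all genes. Without nicotine 16M the median was 0.23, 2 genes had an unadjusted p below 0.05 and edgeR called Oasl2 (adjusted p = 0.042), and the count at that unadjusted p was also 4 without air 39M and 2 without air 31M and 38M. DESeq2 called Oasl2 and Ifit1 with all libraries and Oasl2 without nicotine 21M, where it gave Ifit1 no adjusted p. Oasl2, an antiviral protein of the oligoadenylate synthetase family, had 5.25, 5.86 and 6.54 CPM in air and 7.02, 8.60 and 17.6 CPM with nicotine, without overlap (0.72, adjusted p = 0.075 with edgeR). Irf7, a transcription factor of the interferon response, had 3.16, 3.78 and 4.11 CPM in air and 3.33, 4.71 and 17.2 CPM with nicotine (0.83, adjusted p = 0.24). All 11 genes had their highest nicotine value in nicotine 16M. The list summed to 199 to 222 CPM in air, and 3 nicotine libraries (17M, 19M and 21M) lay between 199 and 217 CPM.

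Enzymes and stress genes showed small values. Of 17 antioxidant and metallothionein genes none passed with edgeR, 4 had an unadjusted p below 0.05 upwards, DESeq2 called 1, and the median was 0.05. Gsr, glutathione reductase, had 27.6, 28.4 and 31.1 CPM in air and 30.6, 31.8 and 34.8 CPM with nicotine (0.17, adjusted p = 0.074). Of 13 enzymes of aldehyde and xenobiotic metabolism none passed with edgeR or DESeq2 and none had an unadjusted p below 0.05, with a median of 0.07. Of 11 glucocorticoid response genes none passed with edgeR or DESeq2, 1 had an unadjusted p below 0.05 in each direction (0 in both without nicotine 21M), and the median was -0.08. Of 12 genes of the DNA methylation machinery none passed with either tool and 1 had an unadjusted p below 0.05, with a median of 0.02. Of 89 respiratory chain genes none passed with either tool, 8 had an unadjusted p below 0.05, all higher (11 without nicotine 21M), and the median was 0.04. Of 32 axon guidance genes none passed with edgeR on 17 libraries, and 2 higher and 1 lower passed in the fit of 12 libraries. In the former fit 5 had an unadjusted p below 0.05 upwards and 4 downwards. DESeq2 called Efnb3 higher and Ntng2 lower (Efnb3 without nicotine 21M).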
